A study of Homo sapiens with 16 samples.

Results

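The mRNAs of the SMN complex were examined in HEK293 cells, with Gemin5, one of its subunits, silenced or not. The 10 genes were taken by symbol, whatever their values, from the 58302 gene identifiers of the count files: GEMIN5, GEMIN2, GEMIN4, GEMIN6, GEMIN7, GEMIN8, DDX20 (Gemin3), STRAP (unrip), SMN1 and SMN2. HEK293 cells are a long-established human line derived from embryonic kidney. The siRNAG5 cells received 100 nM of a Gemin5 siRNA with Lipofectamine 2000, and the Ctrl cells did not receive it. The study's methods and the treatment protocol name a control siRNA for the Ctrl cells, but their sample labels say no treatment, and this is unresolved. From both, RNA of the cytoplasmic lysate (Input) and of the pooled polysomal fractions of a sucrose gradient (Polysome) was sequenced, giving 16 poly(A) libraries in 4 groups of 4. Nuclear RNA was not sampled, and a change of RNA per cell cannot be told apart from a change in the share of cells that carry it.

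The SMN complex loads the ring of Sm proteins onto the small nuclear RNAs of the spliceosome in the cytoplasm, before these particles return to the nucleus. SMN is its scaffold, and the gemins and unrip bind to it directly or through each other. Gemin5 is the subunit that recognises the small nuclear RNAs, and outside the complex it binds the ribosome and controls translation of selected mRNAs, its own included. All values below are mRNA levels and say nothing of the amounts of the proteins.

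The siRNA, its guide strand and its target are shown because the first comparison rests on them. The capitals mark, in turn, the 19 bases that match GEMIN5, the seed of the guide (bases 2 to 8), and the matched site in the mRNA. The guide is given as the reverse complement of the matched bases, without its overhang.
Gemin5 siRNA, sense strand: CCUUAAUCAAGAAGAGAAAuu
Gemin5 siRNA, guide strand: uUUCUCUUcuugauuaagg
GEMIN5 mRNA around the site: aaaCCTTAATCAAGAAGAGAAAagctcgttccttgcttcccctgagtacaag
The mRNA stretch lies at chr5:154904578-154904629 of GRCh38 on the minus strand, in coding sequence of exon 18 (the canonical transcript has 28). GEMIN5 was the only gene with a full match in the annotated transcripts. The 7 bases complementary to the seed, AAGAGAA, occur 3 times in the canonical GEMIN5 mRNA and once each in those of DDX20, SMN1 and SMN2, and in none of the 3' UTRs of the 10 members. Among 19708 coding genes, 43.6% hold them in the mRNA and 22.5% in the 3' UTR. The canonical mRNAs of GEMIN2, GEMIN4, GEMIN6, GEMIN7, GEMIN8 and STRAP do not hold these letters. Whether the siRNA acted on any mRNA through such sites was not tested.

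The libraries held 11145324 to 24511299 reads on genes, and reads that aligned to several places, which were not counted, made up 4.88 to 6.04% in Input and 21.2 to 42.4% in Polysome. The first principal component separated the fractions, and the third separated Polysome Ctrl 1, siRNAG5 1 and siRNAG5 4 (scores of 35.3 to 38.5) from the other Polysome libraries (at most 2.16). Values without these 3 libraries are given where leaving them out changed a call, turned a sign or moved a value of note. Of 4 genes fixed as HEK293 markers, all were read in every library, PAX2 on as few as 4 reads. The 12 liver genes, not expected in this line, were listed because earlier results of these data had shown liver genes in some libraries. Their summed level was 74.0 to 153 CPM in Polysome Ctrl and 120.4 to 137 CPM in Input Ctrl 3 and 4. It was 0.371 to 2.59 CPM in the other 10 libraries. ALB was at 0 reads in 6 libraries and APOB in 10. In Polysome these reads were high in every Ctrl library and low in every siRNAG5 library (0.371 to 0.876 CPM), so there they cannot be told apart from the treatment. In Input they were high in Ctrl 3 and 4 but not in Ctrl 1 and 2. Their part in the results was not tested. GEMIN6, the main change besides GEMIN5, was at 134 and 151 CPM in the Input Ctrl libraries nearly free of liver reads and at 133 and 126 CPM in the others. These are 2 libraries against 2 in Input alone, and whether the liver reads affected GEMIN6 was not tested.

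CPM here are read counts per library, scaled by TMM factors computed over all 16 libraries, so that the 4 groups share one scale. Changes are log2 FC of edgeR's quasi-likelihood test on the counts, with p adjusted over all genes tested (Benjamini-Hochberg). Genes were called where the adjusted p was below 0.05 and the log2 FC exceeded 0.5 in size. All 10 members passed the expression filter in every comparison.

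**Figure D1:**
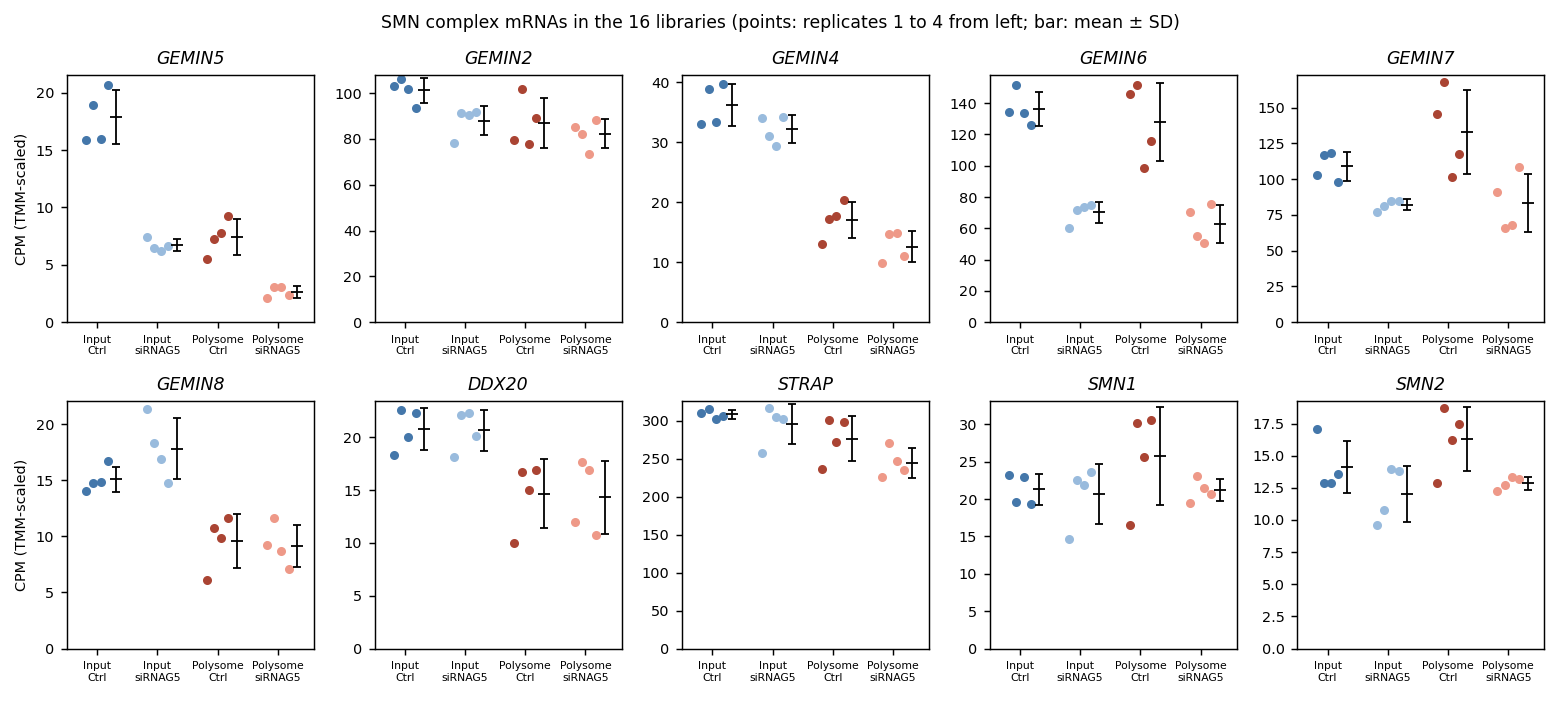
Read counts of the 10 SMN complex mRNAs in CPM (linear axes from 0) in the 4 groups, with 1 point per library (replicates 1 to 4 from left to right) and the mean ± SD of 4 libraries beside them. GEMIN5 was lower in both siRNAG5 groups and in both Polysome groups, whereas GEMIN6 was lower in the siRNAG5 groups at like levels in Input and Polysome.

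Levels of different genes were compared per kilobase of the canonical mRNA. In Input Ctrl cells STRAP, a WD repeat protein also known as unrip, was the most abundant member at 164.5 ± 3.00 CPM per kb (SD, n = 4). GEMIN2, whose protein holds the Sm proteins before they close on the RNA, followed at 76.6 ± 4.02 and GEMIN7 at 65.9 ± 6.08 CPM per kb (SD, n = 4 each). The libraries of these last 2 genes overlapped, so their order is not resolved. GEMIN6 was at 36.8 ± 2.89, SMN1 at 14.4 ± 1.42, GEMIN4 at 9.68 ± 0.944 and SMN2 at 9.52 ± 1.37 CPM per kb (SD, n = 4 each). SMN1 and SMN2 share most of their sequence, and reads that fit both copies were not counted. Their levels are therefore too low and their places in the order uncertain. The lowest 3 were DDX20 at 5.78 ± 0.561, GEMIN8 at 4.79 ± 0.359 and GEMIN5 at 3.31 ± 0.430 CPM per kb (SD, n = 4 each). GEMIN4 overlapped with SMN2 and DDX20 with GEMIN8, whereas by this length the highest GEMIN5 library lay below the lowest library of every other member. By the canonical mRNA GEMIN5 was last in all 4 groups, down to 0.490 ± 0.0916 CPM per kb (SD, n = 4) in Polysome siRNAG5. The subunits of one complex were thus read at levels per length that differed up to 49.7-fold in Input Ctrl cells. With the length of all annotated exons in place of the canonical mRNA, 9 of the 10 levels moved by more than their SD. DDX20 was then last in Input Ctrl, at 2.37 ± 0.230 against 3.17 ± 0.412 CPM per kb for GEMIN5 (SD, n = 4 each), and GEMIN7 (57.0 CPM per kb) lay above GEMIN2 (37.5 CPM per kb).

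**Figure D2:**
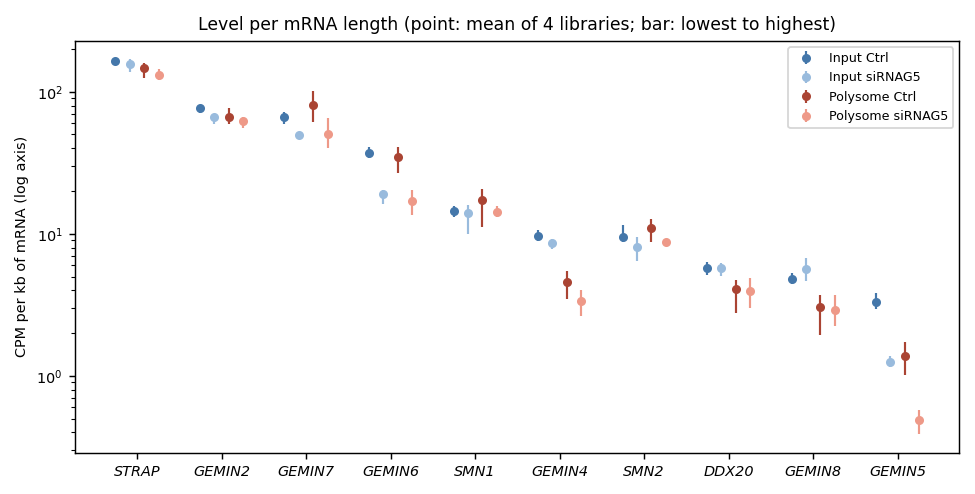
Levels of the 10 mRNAs in CPM per kilobase of canonical mRNA (log axis), with the mean of 4 libraries as a point and a bar from the lowest to the highest library, genes in their order in Input Ctrl. STRAP was highest at 164.5 and GEMIN5 lowest at 3.31 CPM per kb in Input Ctrl, and both kept these places in the other 3 groups by this length. With all annotated exons as the length, DDX20 was lowest in Input Ctrl. The levels of SMN1 and SMN2, which share most of their sequence, are too low and their places uncertain.

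The first comparison asked how the complex's mRNAs changed in the cytoplasm when Gemin5 was silenced. GEMIN5 and GEMIN6 were called lower in Input and no member was called higher, where 6.02% of the 14134 genes tested were called lower and 10.5% higher. GEMIN5 is the target of the siRNA, so only the call of GEMIN6 can be set against these shares. GEMIN5 (ENSG00000082516, chromosome 5 of GRCh38 from 154887411 to 154938211) checks the silencing. It was at 15.9, 18.9, 16.01 and 20.7 CPM in Input Ctrl 1 to 4 and at 7.46, 6.51, 6.22 and 6.68 CPM in Input siRNAG5 1 to 4. Every siRNAG5 library lay below every Ctrl library, on 97 to 127 reads each. The log2 FC was -1.40 (95% interval -1.65 to -1.16, adjusted p = 3.105e-10 by edgeR), which leaves 0.378 of the Ctrl level.

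GEMIN6 (ENSG00000152147, chromosome 2 from 38751534 to 38785002, plus strand) and GEMIN7 (ENSG00000142252, chromosome 19 from 45079195 to 45091518, plus strand) encode 2 proteins with an Sm fold that bind each other within the complex. GEMIN6 was at 134, 151, 133 and 126 CPM in Input Ctrl 1 to 4 and at 60.3, 71.8, 73.8 and 74.7 CPM in Input siRNAG5 1 to 4. All 4 siRNAG5 libraries were far below the lowest Ctrl library. Its log2 FC of -0.95 (95% interval -1.10 to -0.79, adjusted p = 1.574e-10 by edgeR) lay below that of 99.5% of the genes tested. GEMIN7 was at 103, 117, 118 and 97.8 CPM in Input Ctrl and at 76.9, 80.9, 84.9 and 85.0 CPM in Input siRNAG5. Its groups did not overlap either. It had an adjusted p under the threshold (7.602e-05 by edgeR), but its log2 FC of -0.40 (95% interval -0.55 to -0.25) fell short of the fold used for calling, and 88% of genes had a higher log2 FC. The GEMIN7 annotation shares 90 exonic bases with MARK4 and 103 with PPP1R37 on its own strand, genes with at most 651 and 225 reads in a library, against 1032 to 2444 reads on GEMIN7. The antisense gene GEMIN7-AS1, which overlaps it over 1412 exonic bases, had at most 8 reads.

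The remaining members were not called in Input. GEMIN2 was at 93.6 to 106 CPM in Ctrl and 78.4 to 91.9 CPM in siRNAG5, without overlap (log2 FC -0.19, adjusted p = 0.03694 by edgeR). Without Input siRNAG5 1, its lowest library, the log2 FC was -0.14 (adjusted p = 0.104 by edgeR). GEMIN8, which joins the GEMIN6 and GEMIN7 pair to SMN, was the only member with a log2 FC above 0.2, at 14.0 to 16.7 CPM in Ctrl and 14.7 to 21.3 CPM in siRNAG5 (log2 FC 0.25, adjusted p = 0.07993 by edgeR). DDX20, a DEAD-box helicase, and STRAP had log2 FC of 0.00 and -0.05, with 95% intervals of -0.20 to 0.21 and -0.18 to 0.08. GEMIN4, the partner of DDX20, was at -0.16, with an interval from -0.34 to 0.02. Over the 10 members the median log2 FC was -0.17, against 0.04 over all genes tested, and 4 (GEMIN5, GEMIN2, GEMIN6 and GEMIN7) had groups that did not overlap with siRNAG5 lower, where 19.1% of all genes did. The target GEMIN5 is included in this median and in this count.

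The second comparison asked the same of the mRNAs found on polysomes. GEMIN5 and GEMIN6 were again called lower and no member higher, where 4% of the 14420 genes tested were called lower and 3.95% higher. Here too GEMIN5 is the target, and only GEMIN6 can be set against these shares. The polysomal libraries varied more among themselves, with a biological coefficient of variation of 0.216 against 0.0806 in Input. GEMIN5 was at 5.50, 7.21, 7.76 and 9.28 CPM in Polysome Ctrl 1 to 4 and at 2.10, 3.08, 3.05 and 2.35 CPM in Polysome siRNAG5 1 to 4. The groups did not overlap, and the siRNAG5 values rest on 41 to 80 reads. Its change was a log2 FC of -1.44 (95% interval -1.90 to -0.98, adjusted p = 0.004768 by edgeR). GEMIN6 was at 146, 152, 98.6 and 116 CPM in Polysome Ctrl 1 to 4 and at 70.1, 55.2, 50.3 and 75.5 CPM in Polysome siRNAG5 1 to 4. The highest siRNAG5 library was still below the lowest Ctrl library. Its log2 FC was -0.99 (95% interval -1.40 to -0.58, adjusted p = 0.01342 by edgeR). Without Polysome Ctrl 2 the call was lost (log2 FC -0.88, adjusted p = 0.06046 by edgeR), and without the 3 Polysome libraries that stood apart it held at -1.16.

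GEMIN7 was at 145, 168, 101 and 118 CPM in Polysome Ctrl 1 to 4 and at 91.2, 66.0, 67.7 and 108 CPM in Polysome siRNAG5 1 to 4. Here siRNAG5 4 overlapped the Ctrl range, and within both treatments GEMIN7 and GEMIN6 were higher in the libraries that stood apart (and Ctrl 2) than in the rest. It was not called, at a log2 FC of -0.64 (95% interval -1.09 to -0.19, adjusted p = 0.07316 by edgeR). Without the 3 libraries that stood apart it was -0.90 and called (adjusted p = 0.008977 by edgeR), and of 18 other settings 6 called GEMIN7 lower. Only GEMIN5, the target, and GEMIN6 did not overlap between the treatments, and in 10% of all genes every siRNAG5 library lay below every Ctrl library. The remaining 7 members had log2 FC from -0.39 (GEMIN4) to 0.01 (DDX20). The median over the 10 members, the target GEMIN5 included, was -0.27, against 0.03 over all genes.

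**Figure D3:**
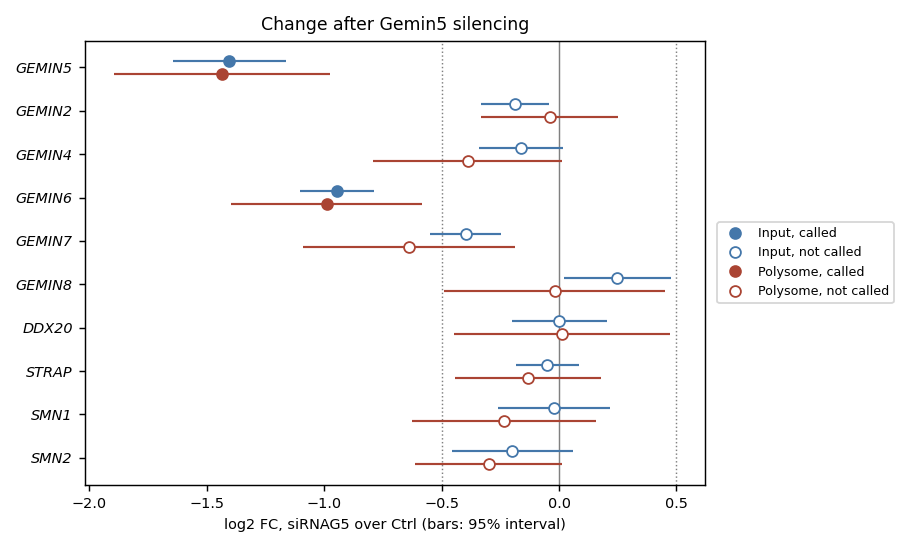
Change of each mRNA after Gemin5 silencing as log2 FC of siRNAG5 over Ctrl in Input and in Polysome, with 95% intervals, filled points for called genes and dotted lines at the fold used for calling (0.5). GEMIN5 (-1.40 and -1.44) and GEMIN6 (-0.95 and -0.99) are the 2 filled genes, and the intervals in Polysome are wider than in Input.

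Whether silencing changed the distribution of an mRNA between polysomes and lysate was tested as the difference of the changes in both fractions, over all 16 libraries. No member was called, and 0% of the 14958 genes tested were called in either direction by edgeR, where 1089 genes (7.28%) had an unadjusted p under 0.05. Of all genes, DESeq2 called 29, edgeR with 1 surrogate variable 575 and edgeR without the 3 Polysome libraries that stood apart 765, and none of these called a member. The differences of log2 FC (Polysome minus Input) ran from -0.31 for GEMIN8 (95% interval -0.83 to 0.22) to 0.12 for GEMIN2 (95% interval -0.19 to 0.43). For GEMIN6 the difference was -0.07 (95% interval -0.50 to 0.36) and for GEMIN7 -0.26 (95% interval -0.74 to 0.21), which became -0.52 without the 3 libraries that stood apart (adjusted p = 0.1077 by edgeR). These intervals leave room for differences up to 0.74 on the log2 scale for GEMIN7, and the absence of a call does not show that the fractions changed alike.

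The baseline distribution of the mRNAs, Polysome over Input in Ctrl cells, differed widely among the members. GEMIN5, GEMIN4 and GEMIN8 were called lower in Polysome and no member was called higher, where 18.8% of the 13666 genes tested were called lower and 20.8% higher. GEMIN5 was at 15.9 to 20.7 CPM in Input Ctrl, as given above, and at 5.50 to 9.28 CPM in Polysome Ctrl. The fractions did not overlap. Its log2 FC was -1.25 (95% interval -1.60 to -0.91, adjusted p = 1.513e-05 by edgeR), and 95.6% of all genes tested had a higher value.

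GEMIN4 (ENSG00000179409, chromosome 17 from 744421 to 753999, minus strand) was at 33.0, 38.8, 33.3 and 39.7 CPM in Input Ctrl 1 to 4 and at 13.1, 17.2, 17.6 and 20.4 CPM in Polysome Ctrl 1 to 4. Every Polysome library was below every Input library. The log2 FC was -1.07 (95% interval -1.37 to -0.78, adjusted p = 1.597e-05 by edgeR). GEMIN8 (ENSG00000046647, chromosome X from 14006726 to 14029893, minus strand) was at 14.0, 14.7, 14.8 and 16.7 CPM in Input Ctrl and at 6.08, 10.7, 9.88 and 11.6 CPM in Polysome Ctrl. The fractions did not overlap, and Polysome Ctrl 1, one of the libraries that stood apart, was the lowest. The log2 FC was -0.64 (95% interval -1.002 to -0.28, adjusted p = 0.005964 by edgeR), and without Polysome Ctrl 1 it was -0.49, short of the fold used for calling.

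DDX20 (ENSG00000064703, chromosome 1 from 111754832 to 111775602, plus strand) was at 18.3, 22.6, 20.01 and 22.3 CPM in Input Ctrl and at 9.99, 16.8, 15.0 and 16.9 CPM in Polysome Ctrl. Its fractions did not overlap, and it lay just under the fold used for calling, at -0.49 (adjusted p = 0.01774 by edgeR). Without Polysome Ctrl 1 it was at -0.36 (adjusted p = 0.0171 by edgeR). With the replicate number as a block it was at -0.51 and called (adjusted p = 0.005947 by edgeR). STRAP did not overlap either, at 303 to 316 CPM in Input and 236 to 300 CPM in Polysome, and was at -0.15 on the log2 scale (adjusted p = 0.3391 by edgeR). In all, 5 members had Polysome below Input without overlap, where 23.2% of all genes did. The other 5 overlapped between the fractions. GEMIN7, SMN1 and SMN2 had log2 FC of 0.30, 0.29 and 0.23, GEMIN6 of -0.08 and GEMIN2 of -0.20, and none of these 5 intervals excluded 0.

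In siRNAG5 cells the same 3 members were called lower in Polysome, where 21.2% of the 14795 genes tested were called lower and 23.9% higher. GEMIN5 was at 6.22 to 7.46 CPM in Input siRNAG5 and 2.10 to 3.08 CPM in Polysome siRNAG5. These groups did not overlap. Its log2 FC was -1.25 (95% interval -1.64 to -0.86, adjusted p = 0.0001259 by edgeR). GEMIN4 was at 34.1, 31.1, 29.4 and 34.1 CPM in Input siRNAG5 and at 9.84, 14.7, 14.9 and 11.0 CPM in Polysome siRNAG5. The lowest Polysome values were in the libraries that stood apart (1 and 4). Polysome over Input was -1.26 on the log2 scale (95% interval -1.60 to -0.92, adjusted p = 4.609e-05 by edgeR). GEMIN8 was at 21.3, 18.3, 16.9 and 14.7 CPM in Input siRNAG5 and at 9.22, 11.6, 8.66 and 7.10 CPM in Polysome siRNAG5. The fractions did not overlap, and its log2 FC was -0.87 (95% interval -1.25 to -0.49, adjusted p = 0.001273 by edgeR). DDX20 was at -0.44 (adjusted p = 0.0514 by edgeR) without overlap, and without siRNAG5 1 and 4, which stood apart, it was at -0.08 (adjusted p = 0.5355 by edgeR). The remaining 6 members overlapped and lay between -0.19 (STRAP) and 0.18 (SMN2) on the log2 scale, and 27.5% of all genes had Polysome below Input without overlap. Without the Polysome libraries that stood apart, GEMIN5 and GEMIN4 stayed called, at -1.14 and -0.97 in Ctrl and at -0.95 and -0.94 in siRNAG5 cells, and GEMIN8 stayed called in siRNAG5 cells, at -0.63. In siRNAG5 cells STRAP then was at -0.01, GEMIN7 at -0.12 and GEMIN6 at -0.23, with SMN1 and SMN2 both at 0.28, and none of these was called.

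The comparisons between fractions depend on the scaling more than those between treatments. TMM centres the bulk of genes, and with the library size alone the median log2 FC of all genes rose from -0.03 to 0.51 in Ctrl and from -0.04 to 0.69 in siRNAG5 cells. The genes called lower and higher then went from 2566 and 2842 to 758 and 6246 in Ctrl, and from 3132 and 3535 to 797 and 8516 in siRNAG5 cells. GEMIN5 and GEMIN4 were still lower in Polysome under that scaling, at -0.71 and -0.53 in Ctrl cells and at -0.50 and -0.51 in siRNAG5 cells, where GEMIN5 lost its call (adjusted p = 0.05661 by edgeR). GEMIN8 lost its call in both, at -0.10 and -0.12, DDX20 turned to 0.05 and 0.32, and GEMIN7, SMN1 and SMN2 were called higher in both, at 0.76 to 0.91. Relative to the median of all genes, GEMIN5 was at -1.22 and -1.19 and GEMIN4 at -1.04 and -1.20 under that scaling. GEMIN2, GEMIN6, DDX20 and STRAP changed sign under it in both treatments, and in siRNAG5 cells GEMIN2, GEMIN6 and STRAP were then called higher, at 0.72, 0.64 and 0.56. Between the treatments, the library size alone moved the median of all genes to 0.14 in Input and 0.38 in Polysome, with 450 genes lower and 2175 higher in Input (851 and 1479 with TMM) and 207 and 2307 in Polysome (577 and 569 with TMM), and GEMIN5 and GEMIN6 stayed called lower in both.

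**Figure D4:**
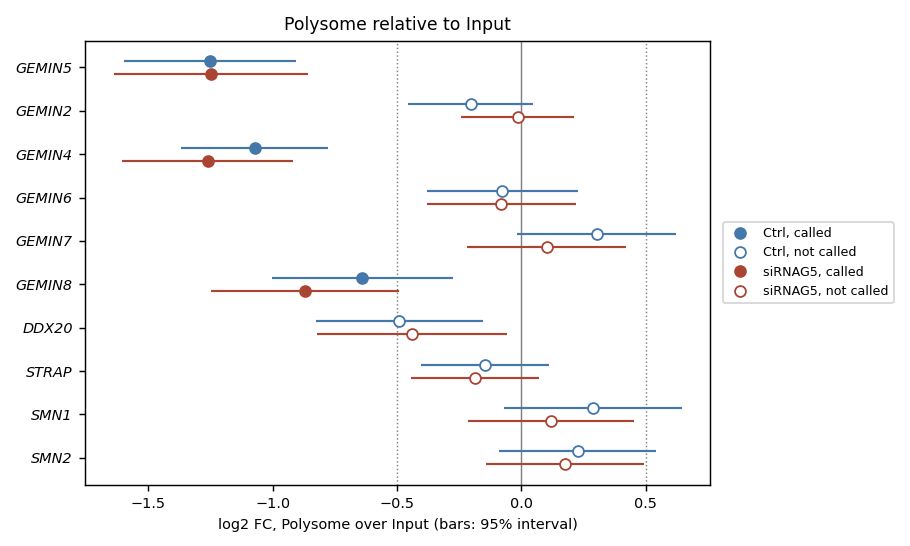
Polysome over Input for each mRNA as log2 FC in Ctrl and in siRNAG5 cells, with 95% intervals, filled points for called genes and dotted lines at the fold used for calling (0.5). GEMIN5, GEMIN4 and GEMIN8 are filled in both treatments (-1.25, -1.07 and -0.64 in Ctrl), and the 2 treatments of each gene have overlapping intervals.

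The 4 members with the lowest log2 FC of Polysome over Input, GEMIN5, GEMIN4, GEMIN8 and DDX20, have long mRNAs. GEMIN5 has the longest canonical mRNA of the 10 (5404 bases), GEMIN4 has 3744, DDX20 3600 and GEMIN8 3147 bases. The other long mRNA is that of GEMIN6, whose 3705 bases are mostly 3' UTR (3110 bases) around 501 coding bases, and which was at -0.08 in both treatments. The 5 other members, STRAP and GEMIN2 among them, have 1320 to 1874 bases and lay between -0.20 and 0.30. As a description over 10 genes, the Spearman correlation of mRNA length and log2 FC was -0.669 in Ctrl and -0.827 in siRNAG5 cells. Without the Polysome libraries that stood apart, a choice made after the data were seen, it was -0.742 and -0.875. Over all coding genes tested it was 0.357 (11746 genes) and 0.392 (12349 genes), of the opposite sign. With the coding length it was -0.657 and -0.547 over the members and 0.0577 and 0.0617 over all coding genes. The members share their libraries, SMN1 and SMN2 share most of their sequence, and the role of length was not tested.

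**Figure D5:**
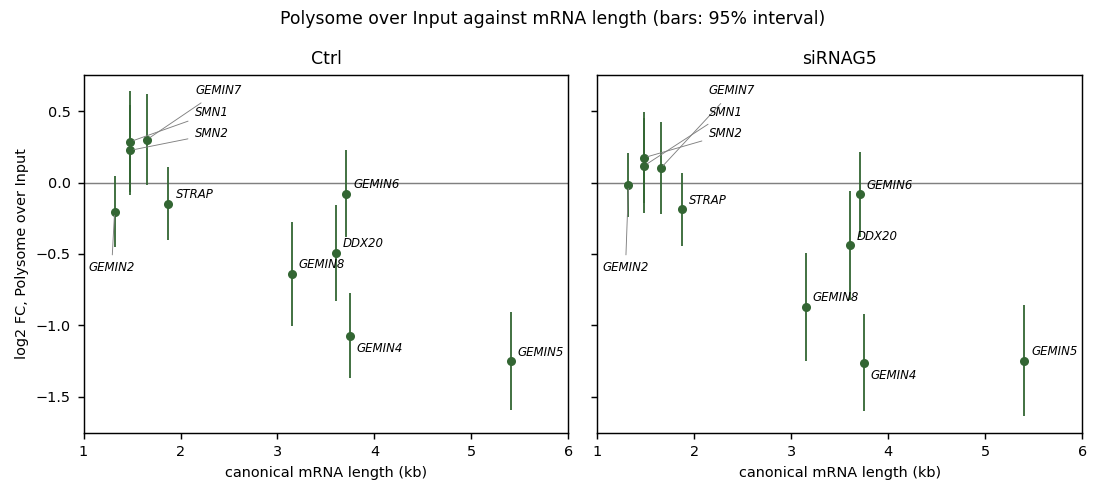
Polysome over Input as log2 FC (with 95% intervals) against the length of the canonical mRNA in kilobases for the 10 members, in Ctrl and siRNAG5 cells. The 4 genes of 3147 bases or more other than GEMIN6 lie below the shorter ones, down to -1.25 for GEMIN5 in Ctrl, and GEMIN6 lies near 0.

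SMN1 (ENSG00000172062, chromosome 5 from 70925030 to 70953942) and SMN2 (ENSG00000205571, chromosome 5 from 70049638 to 70078522) are near-identical copies. SMN2 is known to yield mostly an mRNA without exon 7, and SMN1 the full-length one. Their canonical mRNAs are both 1482 bases long and differ at 2 bases, and 85.5% of the 100-base windows of one (1183 of 1383) are found unchanged in the other. By itself a read from those windows cannot be assigned to one copy, but the reads were paired and a mate may cover a base that differs. The counts thus rest on a part of each mRNA, and their absolute levels are too low and uncertain. SMN1 was at 19.3 to 23.3 CPM in Input Ctrl, 14.7 to 23.6 in Input siRNAG5, 16.6 to 30.6 in Polysome Ctrl and 19.5 to 23.1 CPM in Polysome siRNAG5. SMN2 was at 12.9 to 17.1, 9.59 to 14.0, 12.9 to 18.7 and 12.2 to 13.4 CPM in the same groups. Both genes overlapped in every pair of groups compared, and neither was called in any comparison. Between the fractions of Ctrl cells, the overlap of SMN1 came from Polysome Ctrl 1 alone (16.6 CPM, against 25.7 to 30.6 CPM in Ctrl 2 to 4). Without that library SMN1 went from a log2 FC of 0.29 to 0.44 (adjusted p = 0.003288 by edgeR) and SMN2 from 0.23 to 0.32 (adjusted p = 0.04729 by edgeR), still short of the fold used for calling.

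Of the reads assigned to either copy, SMN1 took 57.6 to 64.0% in Input Ctrl, 60.5 to 67.6% in Input siRNAG5, 56.2 to 63.7% in Polysome Ctrl and 61.0 to 64.6% in Polysome siRNAG5. The means were 60.2 ± 2.78%, 63.1 ± 3.24%, 60.7 ± 3.18% and 62.2 ± 1.61% (SD, n = 4 each). The largest difference, 2.85 percentage points between the treatments in Input, had a two-sided exact permutation p of 0.2571 (0.8286 adjusted over the 4 comparisons), and 4 libraries against 4 allow no p below 0.02857. The other 3 differences were 1.46, 0.516 and -0.881 percentage points (exact permutation p of 0.4857, 0.8286 and 0.7143). With both copies summed and tested as 1 gene, no comparison called it either.

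Correlations of log2 CPM between members were taken over all 16 libraries, so that they hold the differences between fractions and treatments as well as those between replicates. GEMIN6 and GEMIN7 had a Pearson r of 0.88, and GEMIN4, GEMIN8 and DDX20 of 0.861 to 0.878 with each other. STRAP had an r of 0.859 with DDX20 and 0.817 with GEMIN4, GEMIN5 of 0.834 with GEMIN4, and SMN1 and SMN2, which share sequence, of 0.795. GEMIN7 and GEMIN8 had the lowest r of all pairs, -0.339. DDX20 and GEMIN7 serve as examples of opposite values in the Polysome libraries. In Polysome siRNAG5 1 and 4, which stood apart, DDX20 was at 11.99 and 10.8 CPM and GEMIN7 at 91.2 and 108 CPM. In siRNAG5 2 and 3 DDX20 was at 17.6 and 16.9 CPM and GEMIN7 at 66.0 and 67.7 CPM. Polysome Ctrl 1 had the lowest DDX20 (9.99 CPM), GEMIN4 (13.1 CPM) and GEMIN8 (6.08 CPM) of its group and the second highest GEMIN7 (145 CPM). The median SD of log2 CPM over the members was 0.14 in both Input groups and 0.30 and 0.27 in Polysome Ctrl and siRNAG5, against 0.17, 0.16, 0.30 and 0.29 over all genes.

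The genes most like GEMIN5 across the 16 libraries, out of 14957, were RNH1 (r = 0.985), CCDC51 (0.979), DDX56 (0.978), TUBB2A (0.973) and RPN1 (0.967). Those most like GEMIN6 were MRPS7 (0.990), ATP5MC3 (0.989), RPL26L1 (0.987), RABEPK (0.987) and MRPL19 (0.985). GEMIN6's 5 include 3 genes of mitochondrial or cytosolic ribosomal proteins and a subunit of the ATP synthase. These correlations describe the 16 libraries, which differ by fraction and treatment, and carry no test.

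The partners of the SMN complex were described in 4 lists. The methylosome methylates Sm proteins and hands them to SMN. Its list here held PRMT5, WDR77, CLNS1A, RIOK1 and COPRS, and a role of each in Sm methylation is not implied. In Input, where 6.02% of all genes were called lower, 2 of its 5 genes were called lower after silencing and none higher: WDR77, which binds PRMT5, at -1.10 (adjusted p = 2.071e-11 by edgeR) and COPRS at -0.56 (adjusted p = 7.515e-08 by edgeR). In Polysome, where 4% of all genes were, the same 2 were called, at -1.10 and -0.88 (adjusted p of 0.006384 and 0.04496 by edgeR). The list's median log2 FC was -0.43 in Input and -0.52 in Polysome, against 0.04 and 0.03 over all genes.

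The 7 genes of the Sm core, the proteins that the complex places on the RNA, lay below 0 in both fractions. In Input, all 7 were lower with an adjusted p under 0.05, as were 19.1% of all genes tested. All 7 also had siRNAG5 below Ctrl without overlap, as again 19.1% of all genes did. Only SNRPG went beyond the fold, at -0.55 (adjusted p = 7.194e-08 by edgeR), where 6.02% of all genes were called lower. The list's median was -0.44, and the smallest change was that of SNRPD2 at -0.27. In Polysome the median was -0.66, and 1 of the 7 was called lower (4% of all genes were), SNRPF at -0.87 (adjusted p = 0.02036 by edgeR). The difference of both changes was negative for all 7, with a median of -0.28 (-0.06 over all genes) and no call. Of the 8 genes of snRNA export, cap hypermethylation and import (PHAX, NCBP1, NCBP2, XPO1, TGS1, SNUPN, KPNB1 and COIL), none was called in either fraction, with medians of -0.17 and -0.16. Of LSM10, LSM11 and ZPR1, only LSM10, an Sm-like protein of the U7 particle, was called in Input, at -0.55 (adjusted p = 2.164e-07 by edgeR). None of these 3 was called in Polysome. Of all genes, 6.02% were called lower and 10.5% higher in Input, and 4% and 3.95% in Polysome. Against these shares, no call among 8 genes and 1 among 3 carry little weight.

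In the baseline distribution, PRMT5, the methyltransferase, was lower in Polysome by about the size of GEMIN4, at -1.04 in Ctrl and -0.99 in siRNAG5 cells (adjusted p of 6.956e-05 and 0.0001161 by edgeR), and the other 4 methylosome genes were not called. No Sm core gene was called in Ctrl cells, where the list's median was -0.13, and SNRPF alone was called in siRNAG5 cells (-0.53), where the median was -0.35. Of all genes, 18.8% and 20.8% were called lower and higher in Ctrl cells and 21.2% and 23.9% in siRNAG5 cells, and the calls among the 8 export and import genes, 1 lower and 2 higher in both, were near these shares. NCBP1, a subunit of the nuclear cap-binding complex, was called lower, at -0.69 and -0.62. Its partner NCBP2 and the export adaptor PHAX were called higher, at 0.76 and 0.84 and at 0.58 and 0.58. LSM10 was called lower in Ctrl cells only (-0.64, against -0.32 in siRNAG5 cells, a difference of 0.26 with an adjusted p of 0.9089 by edgeR). LSM11 was called higher in siRNAG5 cells only (0.55, against 0.26 in Ctrl, a difference of 0.22 with an adjusted p of 0.8487 by edgeR).

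RefSeq promoters were given for 8 members (10 annotated starts), SMN1 and SMN2 not being among them. None began with a TOP motif (a C at the start followed by pyrimidines, at least 5 in all), which marks mRNAs of the translation machinery. Among all 35116 RefSeq promoters 4.07% did, and of 86 promoters of ribosomal protein genes 55.8%. The study describes the motif in the mRNAs of all ribosomal proteins, so this rule on annotated starts misses some. With 10 starts and a share of 4.07%, finding none among the members carries little weight.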

How the data were processed

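The authors aligned the reads of stranded poly(A) libraries to GRCh38 with STAR (2.5.3a, per the submitters' processing notes) and counted them per Ensembl gene with QoRTs. They deposited the counts as whole numbers, unnormalized, 1 file per library. The strand setting of the counting is not given in the sources used here. Reads without a single gene were listed apart and left out of library sizes and tests: several alignments 4.88 to 42.4%, no gene 0.667 to 1.33% and more than 1 gene 4.14 to 7.41% of a library. Identifiers were named from GENCODE v44 (57532 of 58302), whose coordinates are given. Groups and replicate numbers came from the sample labels.

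Tests used R 4.3.3 and edgeR 4.0.16, with its expression filter filterByExpr, TMM factors and the quasi-likelihood test, and p adjusted over all genes tested (Benjamini-Hochberg), each comparison on its own 8 libraries and the difference between fractions on all 16. The SMN1 share was compared by an exact permutation test. Alternatives included DESeq2 1.42.0 and sva 3.50.0. The study's methods use DESeq2, and edgeR was used here as the main test for counts. Scripts were tested on simulated counts. Between the treatments, p-values measure the spread between 4 samples described as independent. Input and Polysome RNA came from the same set of lysates by the study's account. The comparisons between fractions and the test of the difference treated these libraries as independent, which they are not by that account.

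The 10 members were named whatever their values, with at most 3 called genes per partner list, the 5 genes most correlated with GEMIN5 and with GEMIN6, and overlapping genes. Members and lists were chosen with earlier results of these data known. Promoters are those of RefSeq (GRCh38 build of the table), and the siRNA sequence is that of the labels. Same-numbered Input and Polysome libraries did not all deviate together (correlations of -0.207 to 0.222). Between the treatments, same-numbered libraries had correlations of -0.53 to 0.483. No source used here says that a number marks 1 lysate, so the numbers were not taken as pairs.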

Additional observations from a re-analysis of the deposited data

Results flagged for a closer look

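Among 44 sets of 4 libraries (the CPM of 10 members and the SMN1 share in 4 groups), 2 held a library whose gap to the nearest other exceeded Dixon's 95% critical value, where chance gives about 1 set in 20. GEMIN2 was at 78.4 CPM in Input siRNAG5 1, against 90.4 to 91.9 CPM in Input siRNAG5 2 to 4. SMN2 was at 17.1 CPM in Input Ctrl 1, against 12.9 to 13.5 CPM in Input Ctrl 2 to 4. No member's change differed between the fractions by the test of the difference.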

How the results depend on the processing

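The calls of GEMIN5 and GEMIN6 after silencing, and of GEMIN5 and GEMIN4 between fractions, kept their direction under every alternative run, and GEMIN5 after silencing and GEMIN4 between fractions kept their calls too. By the adjusted p alone, 4 members passed in Input (GEMIN2 and GEMIN7 in addition), all lower, as did 19.1% of all genes. Neither GEMIN2 nor GEMIN7 stayed under 0.05 in every alternative. GEMIN2 was at 0.375 with the library size alone and GEMIN7 at 0.08825 with all 16 libraries in 1 fit (adjusted p by edgeR). With the library size alone, 5 members (2 lower, 3 higher) were called between fractions in Ctrl cells and 7 in siRNAG5 cells. Of all genes, 7004 of 13666 and 9313 of 14795 were called under that scaling, so these counts were near the shares of all genes. Without Polysome Ctrl 2, 1 member was called in the Polysome comparison. With each library left out in turn, 2 members were called in Input and 1 to 3 in Polysome. Between fractions, 2 to 4 were called in Ctrl cells and 3 to 4 in siRNAG5 cells, and 0 for the difference. Over all genes, 1893 to 2494, 189 to 1523, 4909 to 5799, 6068 to 7081 and 0 to 1 were called, in the same order.

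Input and Polysome RNA came from the same set of lysates by the study's account, but whether a shared number marks 1 lysate is not given, and same-numbered libraries did not all deviate together. With the replicate block, 2, 2, 4, 3 and 0 members were called in the 5 comparisons (Input, Polysome, between fractions in Ctrl and in siRNAG5 cells, and the difference). DDX20 was added in Ctrl cells at -0.51 (adjusted p = 0.005947 by edgeR), and no other call changed. Of all genes, 2313 of 14134 were then called in Input and 5531 of 13666 between fractions in Ctrl cells. Not every library correlated best with that of its own number.

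Signs turned only for members that were not called with TMM. With the library size alone, the log2 FC after silencing became 0.0563 (STRAP) and 0.0866 (SMN1) in Input and 0.314 (GEMIN2), 0.339 (GEMIN8), 0.226 (STRAP), 0.12 (SMN1) and 0.0537 (SMN2) in Polysome. Between fractions it became 0.324 (GEMIN2), 0.439 (GEMIN6), 0.0462 (DDX20) and 0.389 (STRAP) in Ctrl cells and 0.717, 0.639, 0.321 and 0.559 for the same 4 in siRNAG5 cells. The difference became 0.211 (GEMIN5), 0.0243 (GEMIN4), 0.201 (GEMIN6), 0.00171 (GEMIN7), 0.275 (DDX20), 0.17 (STRAP), 0.038 (SMN1) and 0.154 (SMN2). This scaling also raised the median of all genes, to 0.14, 0.38, 0.51, 0.69 and 0.21 in the 5 comparisons.

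DDX20, near 0 throughout, was at -0.00794 (DESeq2), -0.00799 (RLE) and -0.00968 (all 16 libraries) in Input, and at -0.0252 (DESeq2 and RLE), -0.0729 (1 surrogate variable) and -0.0345 (all 16 libraries) in Polysome. Its difference between fractions was 0.0131 (DESeq2), 0.0132 (RLE), 0.0181 (no filter) and 0.117 (without the 3 libraries apart). Without a filter GEMIN8 was at 0.0131 in Polysome and GEMIN2 at 0.0172 between fractions in siRNAG5 cells. Without the 3 libraries apart, GEMIN2 was at 0.00102 and GEMIN7 at -0.116 there, and the difference of GEMIN5 was 0.0396. The difference of GEMIN6 was 0.0939 with 1 surrogate variable. The cause of these changes was not tested.

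Leaving out 1 library turned the sign of 14 log2 FC and of 3 of the 4 differences in SMN1 share. After silencing in Input, DDX20 ranged from -0.0613 to 0.0545, STRAP from -0.0792 to 0.0097 and SMN1 from -0.0966 to 0.105, and in Polysome GEMIN2 from -0.096 to 0.0601, GEMIN8 from -0.175 to 0.0894 and DDX20 from -0.125 to 0.131. Between fractions, GEMIN6 ranged from -0.185 to 0.0458 in Ctrl cells, and in siRNAG5 cells GEMIN2 from -0.0728 to 0.0353, GEMIN6 from -0.153 to 0.011, GEMIN7 from -0.0148 to 0.195 and SMN1 from -0.018 to 0.192. The difference ranged from -0.16 to 0.0501 (GEMIN5), -0.177 to 0.0465 (GEMIN6) and -0.144 to 0.0889 (DDX20). The SMN1 share differed by 1.34 to 4.12 points between treatments in Input, by -0.0461 to 2.44 in Polysome, and between fractions by -0.467 to 2.02 in Ctrl and -1.72 to 0.636 in siRNAG5 cells.

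Of the counts over all genes, that after silencing in Polysome went from 1146 called to 1941 (DESeq2), 2514 (library size alone), 1766 (no filter), 2999 (1 surrogate variable), 2597 (all 16 libraries) and 3115 (without the 3 libraries apart), and to 189 without Ctrl 2, 512 to 534 without siRNAG5 2, 1 or 3 and 581 without Ctrl 4. The adjusted p alone gave 5230 in Input (2330 with the fold). The difference gave 0 by edgeR but 29 (DESeq2), 57 (no filter), 575 (1 surrogate variable), 765 (without the 3 libraries apart) and 1 (without Polysome siRNAG5 4). Depth limits GEMIN5 most, at 41 to 80 reads in Polysome siRNAG5.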
